A study of Homo sapiens with 6 samples.

Results

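The 9 genes described here, SHH, PTCH1, SMO, GLI1, GLI2, GLI3, SUFU, HHIP and BOC, encode core components of the Hedgehog pathway and were taken by name from the 20033 protein-coding genes of GENCODE version 44. For each gene, all ATAC-seq peaks were collected that overlapped the 3 kb on either side of its start, called the promoter window, or the gene body with 20 kb on each side, called the gene window. ATAC-seq measures chromatin accessibility through the Tn5 transposase, which inserts sequencing adapters into open DNA. The 9 gene windows held 12 of the 7880 peaks listed for WT NPCs, 23 of the 25439 peaks listed for dKO NPCs and 22 of the 16948 peaks listed for dKO NPCs with BAF53B. The gene list was not chosen by any accessibility value, although earlier results of these data were known when it was chosen.

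By their sample titles, all 3 groups were human neural progenitor cells (NPCs). They were made from the H1 embryonic stem cell line, and each group had 2 replicates. WT NPCs were unmodified H1 derivatives. dKO NPCs carried deletions within UTX (gene KDM6A) and JMJD3 (gene KDM6B), the demethylases that remove the repressive histone mark H3K27me3. The knockout cells were made by Cas9 with a donor cassette and puromycin selection, first at JMJD3 and then at UTX, and the number of clones behind the dKO samples is not given in the sources used here. The BAF53B group carried the same deletions, and per the study's results the NPCs were transduced with a lentivirus that expressed BAF53B (gene ACTL6B), a subunit of the BAF chromatin remodelling complex in neurons. The titles of this group name NPCs, whereas the study's legend for its BAF53B accessibility plot names differentiated cells. The titles are followed here. NPCs were induced with the SMAD inhibitors SB431542 and dorsomorphin and then grown with bFGF and EGF. The titles and methods place WT and dKO NPCs at the same early passage, and the passage of the BAF53B group is not given in the sources used here. A Hedgehog ligand or agonist is not named among the culture additions.

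The labels of both replicates of a group name a common, pooled peak list, so no value below has a replicate error, no p-value was computed, and every difference describes pooled libraries. The unit used throughout is the summit pileup, the whole number of fragments stacked at the highest point of a peak. The 3 lists were of similar depth, with a genome background of 6.33, 6.81 and 6.78 fragments in the WT, dKO and BAF53B lists, or 1.08 and 1.07 times WT in the latter pair. The weakest listed peaks had 25, 25 and 26 fragments, so a gene without a peak may still have accessibility below that level. In such bulk samples, fewer cells with an open site and less opening per cell cannot be told apart.

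The labels could not be checked fully from peaks. The study's targeting scheme names exon 18 of KDM6B. A peak over that exon and exon 19, counted in the canonical transcript, had 36 fragments in the WT list and 72 in the list labelled dKO. The BAF53B list had none there, and the bounds of the deleted segment were not used here. At the ACTL6B start all 3 lists had a peak, with 37, 34 and 30 fragments. BAF53B was expressed from a lentivirus, so peaks at the gene's own start cannot check that label. "WT", "dKO" and "BAF53B" below therefore name lists by their labels. Of 8 neural progenitor markers, 1, 6 and 5 had a promoter peak in the WT, dKO and BAF53B lists, while PAX6 and NES had none in any list. Among the pluripotency markers POU5F1, NANOG, LIN28A and DPPA4, only LIN28A had one, in the dKO and BAF53B lists, and 0, 2 and 2 of 4 mesenchyme markers and 1, 2 and 1 of 4 neuron markers had one. Over all protein-coding genes, 28.2%, 56.4% and 45.0% had a promoter peak in the WT, dKO and BAF53B lists. A lower count in WT than in dKO is thus not particular to the markers, and these counts do not settle the labels.

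Hedgehog ligands such as SHH bind the receptor PTCH1 and relieve its block on SMO, a membrane protein that signals through the primary cilium. SMO activity releases GLI transcription factors from SUFU and shifts the balance from GLI repressors, chiefly made from GLI3, to GLI activators, chiefly made from GLI2. GLI1, PTCH1 and HHIP are well-known transcriptional targets that feed back on the pathway, and in the neural tube the signal patterns the ventral side.

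Of the regions described below, 5 are printed here, because they carry the contrast between genes open in all lists, in the dKO list alone and in the opposite direction. Promoter sequences come from RefSeq (GRCh38.p14) and run from 250 bases before a start to 50 bases after it. Of the 9 genes, 7 had a promoter sequence (13 in all), and GLI1 and GLI3 did not match. Peak sequences are 201 bases of hg38 centred on a summit. Capitals mark matches on either strand to the GLI consensus GACCACCCA, the AP-1 site TGACTCA, the SOX sites CCATTGT and CCTTTGT, the GC box GGGCGG and the E-box CAGCTG, none of which overlap in these sequences. The PTCH1 promoter at the canonical start (chr9:95509217-95509516, minus strand) holds the GLI consensus, as its reverse complement from base 79, and lay under a peak in all 3 lists:
PTCH1 promoter: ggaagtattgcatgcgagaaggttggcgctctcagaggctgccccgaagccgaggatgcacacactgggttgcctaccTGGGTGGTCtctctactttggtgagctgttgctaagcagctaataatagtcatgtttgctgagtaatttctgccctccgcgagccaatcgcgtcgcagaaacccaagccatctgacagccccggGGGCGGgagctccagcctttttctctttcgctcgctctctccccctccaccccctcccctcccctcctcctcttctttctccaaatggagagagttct
The SMO promoter (chr7:129188383-129188682, plus strand) was also under a peak in all 3 lists and holds a GC box from base 74 and a SOX site from base 279:
SMO promoter: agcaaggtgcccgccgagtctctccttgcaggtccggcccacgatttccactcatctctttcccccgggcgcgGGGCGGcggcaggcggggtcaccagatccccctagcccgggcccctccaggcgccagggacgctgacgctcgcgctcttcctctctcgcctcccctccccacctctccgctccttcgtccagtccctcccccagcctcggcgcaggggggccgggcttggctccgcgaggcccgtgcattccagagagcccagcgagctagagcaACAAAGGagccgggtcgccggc
The HHIP promoter (chr4:144645906-144646205, plus strand) was under a peak in the dKO list only and holds 3 GC boxes:
HHIP promoter: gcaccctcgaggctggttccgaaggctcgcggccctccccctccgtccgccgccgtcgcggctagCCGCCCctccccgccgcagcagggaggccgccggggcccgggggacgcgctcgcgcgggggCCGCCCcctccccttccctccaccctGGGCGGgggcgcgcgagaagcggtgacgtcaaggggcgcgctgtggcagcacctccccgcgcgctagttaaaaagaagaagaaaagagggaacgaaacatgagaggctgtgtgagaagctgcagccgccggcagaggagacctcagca
The BOC intron 2 region (chr3:113241733-113241933, plus strand), the only region in both the WT and dKO lists with the lower pileup in dKO, holds an AP-1 site from base 175:
BOC 30.8 kb: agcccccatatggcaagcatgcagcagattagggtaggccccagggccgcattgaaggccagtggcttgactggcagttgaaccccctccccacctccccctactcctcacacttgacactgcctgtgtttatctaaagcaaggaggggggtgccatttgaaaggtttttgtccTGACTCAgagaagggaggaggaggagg
The GLI2 intron 2 region (chr2:120893960-120894160, plus strand) was listed in dKO NPCs and with BAF53B but not in WT NPCs, and holds an E-box from base 157:
GLI2 158.4 kb: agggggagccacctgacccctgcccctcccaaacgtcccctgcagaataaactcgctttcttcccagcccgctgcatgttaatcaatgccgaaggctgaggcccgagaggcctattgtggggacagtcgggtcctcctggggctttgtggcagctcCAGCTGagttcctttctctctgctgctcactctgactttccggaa

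A promoter peak was present at 3 of the 9 genes in the WT list (SMO, GLI1 and SUFU), at 4 in the dKO list (the same 3 and HHIP) and at 5 in the BAF53B list (the same 3, PTCH1 and GLI3). Over all protein-coding genes the share with a promoter peak was 28.2% in the WT list, 56.4% in the dKO list and 45.0% in the BAF53B list, against 33.3%, 44.4% and 55.6% of the 9 genes. With so few genes these shares lie near the background. The order of the counts also rested on the lengths of the lists: when only the 7880 most significant peaks of each were kept, 3, 2 and 1 of the 9 genes had a promoter peak, and with a −log10 q of at least 10 the counts were 1, 3 and 1. Shares over all genes are not given for these shortened lists. SHH, GLI2 and BOC had no promoter peak in any list.

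A peak anywhere in the gene window was present at 5, 8 and 7 of the 9 genes in the WT, dKO and BAF53B lists, against 47.0%, 78.4% and 67.9% of all protein-coding genes. SHH had none in any list, GLI2 and GLI3 had none in the WT list, and HHIP had none in the WT and BAF53B lists. Per 100 kb of gene window, the 9 genes held 0.889, 1.70 and 1.63 peaks, against 0.608, 1.70 and 1.16 over all gene windows pooled. When all lists were limited to the length of the WT list, the windows of 5, 5 and 6 genes held 12, 11 and 9 peaks. That limit makes the totals of the lists equal, so it cannot show whether the lower WT numbers reflect accessibility. At a −log10 q of at least 10 the windows of 2, 7 and 5 genes held 4, 16 and 7 peaks. Shares over all genes are not given at these settings. The windows of the 9 genes were longer than usual, with a median of 116 kb against 67.5 kb.

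**Figure D1:**
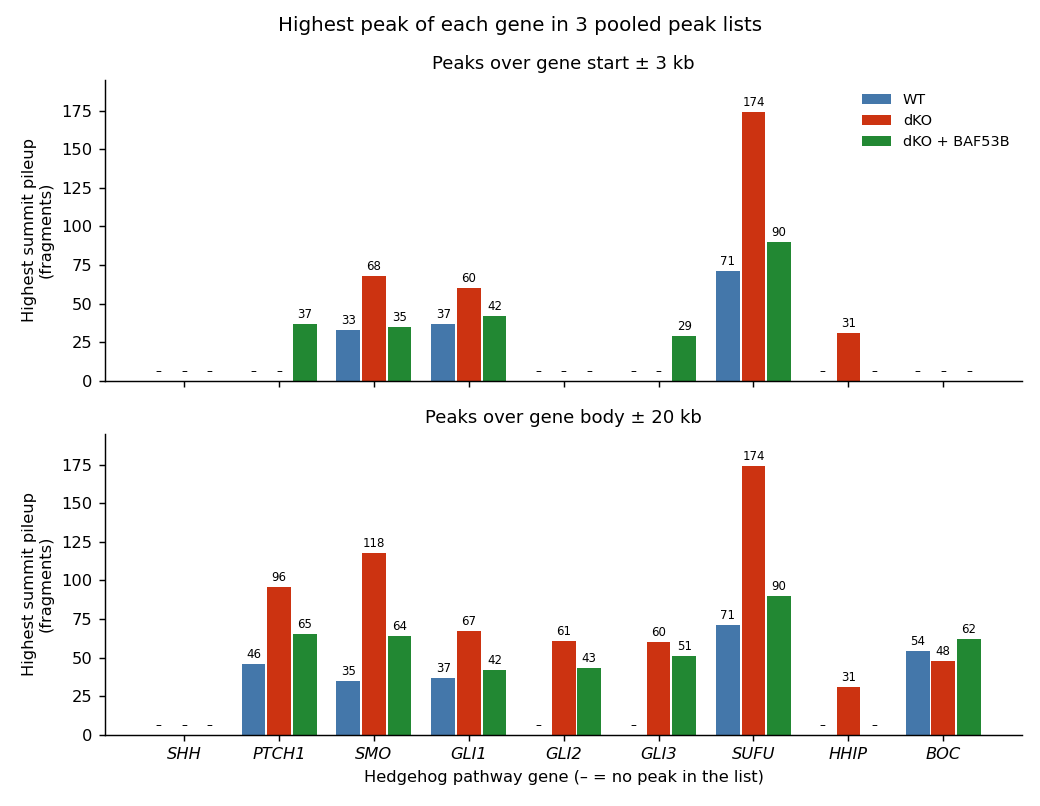
Highest summit pileup (fragments) of any peak in the promoter window (upper panel, start ± 3 kb) and in the gene window (lower panel, gene body ± 20 kb) of each of the 9 Hedgehog genes. Bars are the pooled WT, dKO and BAF53B lists, and a dash marks a gene without a peak in that list. SUFU had the highest bars, with 71, 174 and 90 fragments, and SHH had none.

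SHH, the secreted ligand (ENSG00000164690.8, chr7:155799980-155812463, minus strand), had no peak within its body or the 20 kb on either side. Its enhancers are known to lie far upstream, up to the introns of LMBR1, so the interval from SHH to the far end of LMBR1 (chr7:155799980-156893216) was examined as well. This 1.09 Mb held 0 WT peaks, 3 dKO peaks and 7 BAF53B peaks, or 0, 2.74 and 6.40 per Mb, against 2.55, 8.24 and 5.49 per Mb over the genome. With the full lists, WT and dKO were thus sparser here than on average, and BAF53B was not. When all lists were limited to the length of the WT list, the interval held 0, 2 and 2 peaks, and BAF53B no longer differed from dKO.

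In the dKO list, 2 of the 3 peaks lay at the starts of RNF32 and LMBR1, with 49 and 60 fragments, and the BAF53B list had peaks at the same starts with 38 and 58 fragments. The remaining dKO peak, 818 kb upstream of the SHH start, had 25 fragments, the lowest pileup in its list. The other 5 BAF53B peaks lay 237, 253, 344, 853 and 940 kb upstream, with 29, 40, 29, 26 and 27 fragments, and the farthest lay in intron 9 of LMBR1. None of these 5 had a counterpart in the other lists, and 4 of them had a −log10 q under 10, the stricter threshold. None of the 10 peaks in the interval held the GLI consensus or a SOX site within 100 bp of the summit.

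**Figure D2:**
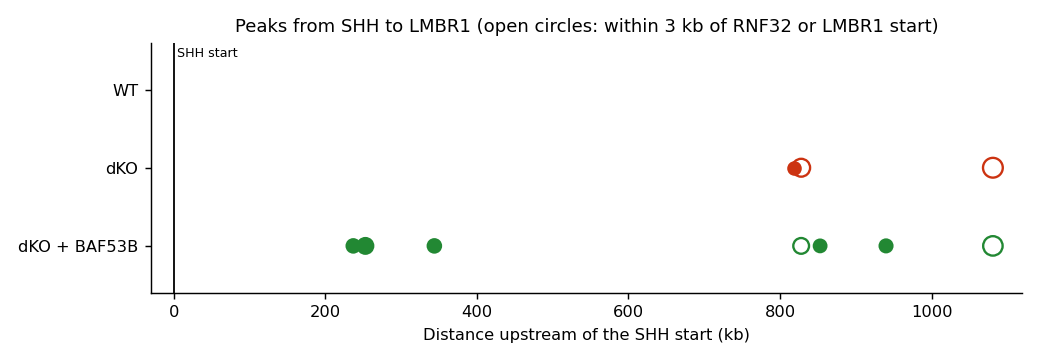
Position of each peak between SHH and LMBR1 as distance upstream of the SHH start (kb), for the WT, dKO and BAF53B lists. Filled circles are peaks away from gene starts and open circles peaks within 3 kb of the RNF32 or LMBR1 start, with larger circles for higher pileups. The WT row is empty, the dKO row holds 1 filled circle and the BAF53B row holds 5.

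PTCH1, the receptor that holds SMO inactive (ENSG00000185920.19, chr9:95442980-95517057, minus strand), had its highest peaks inside the annotated gene and away from its outermost start. The annotation places the start of the canonical transcript 7791 bp downstream of the gene start, outside the promoter window. A peak at this canonical start, 7.7 kb from the gene start, had 46 fragments in WT NPCs, 96 in dKO NPCs and 51 with BAF53B. Its pileup over the genome background was 1.94 times WT in the dKO list (exact 95% interval 1.35 to 2.82) and 0.534 times dKO in the BAF53B list (0.373 to 0.758). These intervals, like all those of ratios below, are exact binomial intervals that cover counting error only. The WT and BAF53B pileups lay close together, and the dKO pileup stood above both. The authors' fold, which divides by the local background, was 3.44, 3.94 and 2.93 in the WT, dKO and BAF53B lists. On that scale dKO stood less far above the others, and BAF53B lay below WT. The ratios of single regions below likewise use the genome background and not the local background.

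A neighbouring PTCH1 site, 6.2 kb from the gene start, had 42, 94 and 65 fragments in the WT, dKO and BAF53B lists. The dKO over WT ratio was 2.08 (1.43 to 3.07) and the BAF53B over dKO ratio 0.695 (0.499 to 0.964). The promoter peak that put PTCH1 among the genes of the BAF53B list lay 1.1 kb inside the gene, had 37 fragments and a −log10 q of 5.46, near the minimum of 5, and had no counterpart in the other lists. Further PTCH1 peaks were called in 1 list only: 37 fragments in intron 2 with BAF53B, 35 fragments in intron 15 in dKO NPCs and 46 fragments in dKO NPCs at the start of the neighbour FANCC.

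When the canonical start was used in place of the gene start, 4, 6 and 4 of the 9 genes had a peak within 3 kb in the WT, dKO and BAF53B lists, against 29.0%, 58.7% and 46.6% of all genes. PTCH1 then had a peak in all 3 lists and GLI3 only in the dKO list. The count of genes with a promoter peak was therefore highest in the BAF53B list by gene start and highest in the dKO list by canonical start. This definition was added after the peaks had been seen.

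SMO, the transducer that PTCH1 represses (ENSG00000128602.11, chr7:129188633-129213545, plus strand), had a peak 0.1 kb before its start in all 3 lists, with 33 fragments in WT NPCs, 68 in dKO NPCs and 35 with BAF53B. The dKO over WT ratio was 1.92 (1.25 to 3) and the BAF53B over dKO ratio was 0.517 (0.334 to 0.789), whereas the BAF53B over WT ratio of 0.990 (0.598 to 1.65) spanned 1. The other SMO window peak lay 36.2 kb downstream of the start, at the start of AHCYL2, with 35, 118 and 64 fragments. Its dKO over WT ratio of 3.13 (2.13 to 4.71) was the highest of the 10 regions shared by these lists. No further peak was called in the SMO window.

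BOC, a co-receptor that binds the ligand at the membrane (ENSG00000144857.15, chr3:113211003-113287459, plus strand), had only peaks away from its start. The intron 2 region at 30.8 kb, printed above, had 54 fragments in WT NPCs, 38 in dKO NPCs and 62 with BAF53B, the lowest value being that of the dKO list. The dKO over WT ratio of 0.654 (0.420 to 1.01) spanned 1, and the BAF53B over dKO ratio of 1.64 (1.08 to 2.52) did not. Among the regions of the 9 genes, this was the only shared region with a dKO pileup below WT, and the only one whose BAF53B over dKO interval lay above 1.

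The other BOC regions were each missing from at least 1 list. A peak at 21.0 kb, also in intron 2, was called in WT NPCs alone with 33 fragments and was the only WT peak of the 9 genes without a dKO counterpart. A peak in intron 9 had 48 fragments in dKO NPCs and 37 with BAF53B, a ratio of 0.774 (0.491 to 1.22), and none was called in WT NPCs. The BAF53B list alone had a peak 17.5 kb before the start, with 33 fragments.

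HHIP, a membrane protein that binds and sequesters Hedgehog ligands (ENSG00000164161.10, chr4:144646156-144745271, plus strand), had peaks in the dKO list alone. The peak 0.2 kb before its start, over the promoter printed above, had 31 fragments and a −log10 q of 5.65. The other lay over exon 12, 88.7 kb into the gene, with 26 fragments and a −log10 q of 5.61. Both were near the minimum of 5, and the stricter threshold of 10 removed them.

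**Figure D3:**
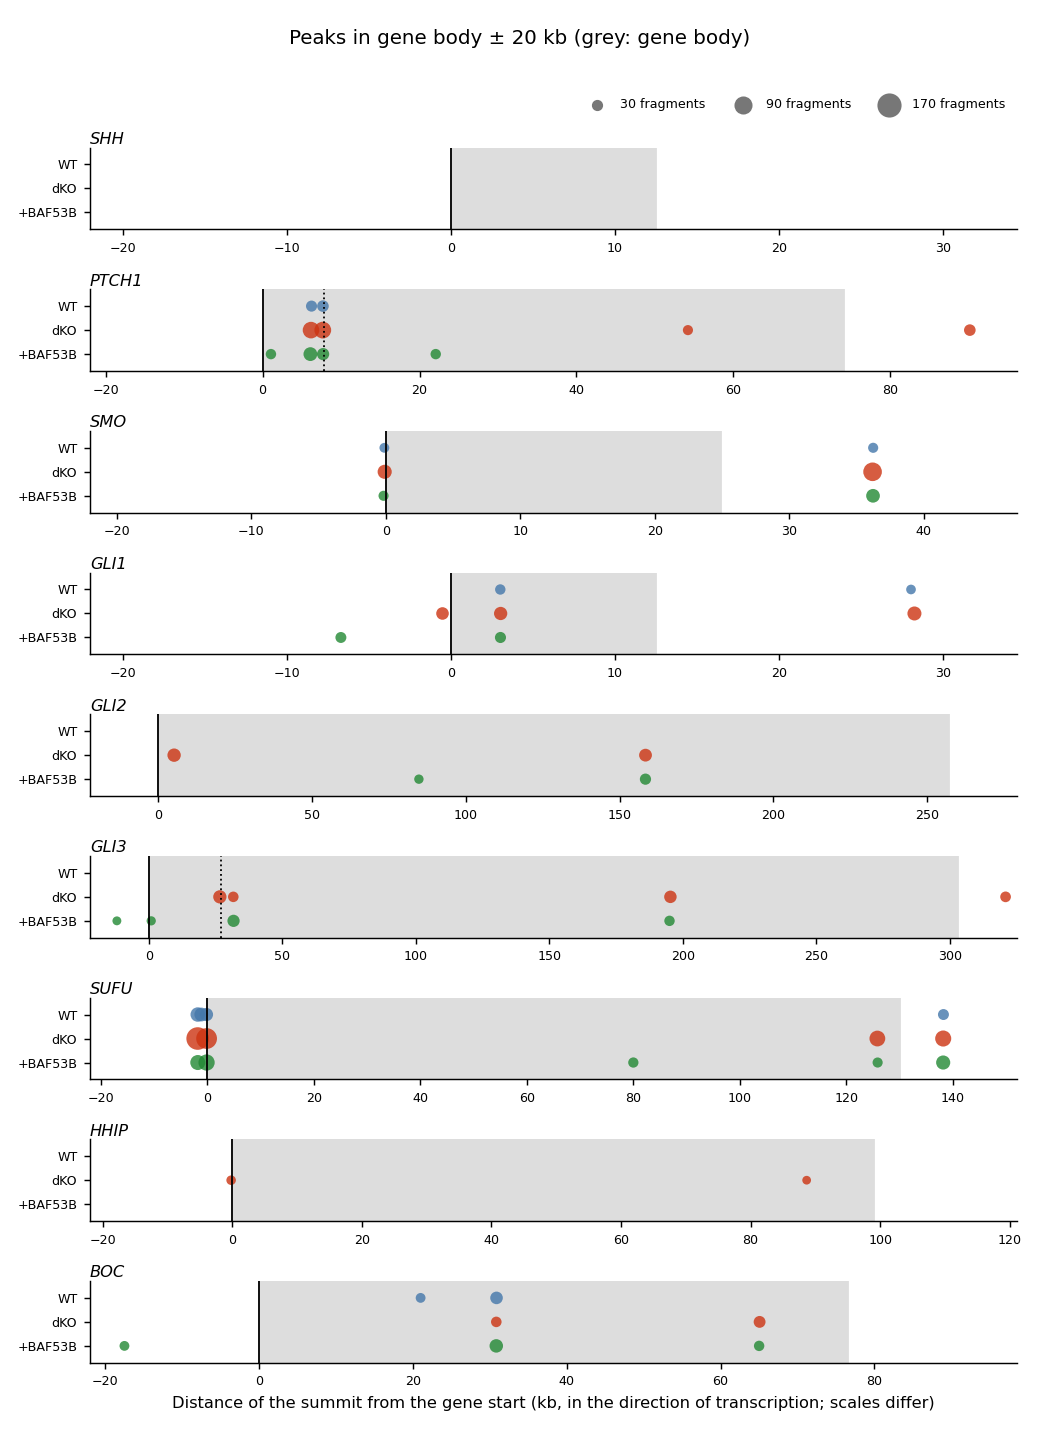
Peaks in the window of each Hedgehog gene by distance of the summit from the gene start (kb, in the direction of transcription). Rows are the WT, dKO and BAF53B lists, circle area grows with the summit pileup (fragments), grey marks the gene body, the solid line the gene start and the dotted line the canonical start of PTCH1 and GLI3. SHH is empty, HHIP has circles in the dKO row only, and the GLI2 and GLI3 windows have no WT circle.

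SUFU, the cytoplasmic inhibitor of the GLI proteins (ENSG00000107882.12, chr10:102503972-102633535, plus strand), had the highest pileups of the 9 genes in all 3 lists. The region 1.6 kb before its start, which also lies at the start of ACTR1A, had 71 fragments in WT NPCs, 174 in dKO NPCs and 77 with BAF53B. The percentile of this pileup among all dKO peaks was 99.6. The dKO over WT ratio was 2.28 (1.72 to 3.05) and the BAF53B over dKO ratio 0.445 (0.336 to 0.585). In the WT list the region was split into a pair of peaks, the weaker with 65 fragments.

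The SUFU start itself, 0.1 kb before the annotated position, had 59, 147 and 90 fragments in the WT, dKO and BAF53B lists. Its dKO over WT ratio was 2.32 (1.70 to 3.19), and here the BAF53B list also stood above WT, at 1.42 times (1.02 to 2.01). An intron 11 region at 125.9 kb had no WT peak, 85 fragments in dKO NPCs and 35 with BAF53B. That BAF53B over dKO ratio of 0.413 (0.271 to 0.620) was the lowest of the 14 regions shared by these lists. The start of the neighbour TRIM8 had 41, 88 and 68 fragments, and an intron 3 peak of 36 fragments was called with BAF53B alone.

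GLI1, the GLI factor whose own transcription is a standard readout of the pathway (ENSG00000111087.10, chr12:57459785-57472268, plus strand), had a shared peak 3.0 kb from its start in intron 1, with 37, 60 and 42 fragments in the WT, dKO and BAF53B lists. The dKO over WT ratio of 1.51 (0.984 to 2.34) and the BAF53B over dKO ratio of 0.704 (0.463 to 1.06) both spanned 1. This peak lay at the edge of the promoter window, and nearer the start, at 0.5 kb before it, only the dKO list had a peak, with 54 fragments. With a promoter window of 1 kb, GLI1 therefore had a promoter peak in the dKO list alone.

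Of the other GLI1 window peaks, the region at the start of ARHGAP9 had 32 fragments in WT NPCs and 67 in dKO NPCs, a ratio of 1.95 (1.26 to 3.06), and none with BAF53B. The BAF53B list alone had a peak of 41 fragments at the start of INHBE, 6.7 kb before GLI1.

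GLI2, the main GLI activator (ENSG00000074047.22, chr2:120735623-120992653, plus strand), had no WT peak and no promoter peak in any list. Its highest peak, in intron 1 at 5.3 kb, had 61 fragments and was called in dKO NPCs alone. The intron 2 region printed above, at 158.4 kb, had 56 fragments in dKO NPCs and 43 with BAF53B, a ratio of 0.773 (0.506 to 1.17). A further intron 2 peak of 30 fragments was called with BAF53B alone.

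GLI3, the main GLI repressor (ENSG00000106571.15, chr7:41960949-42264100, minus strand), likewise had no WT peak. At its canonical start, 26891 bp downstream of the gene start, the dKO list had a peak of 60 fragments and the other lists had none. At the gene start only the BAF53B list had a peak, of 29 fragments. In intron 1, at 31.7 kb, the dKO list had 38 fragments and the BAF53B list 51, a ratio of 1.35 (0.869 to 2.11) that spanned 1.

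In GLI3 intron 4 the dKO list had 53 fragments and the BAF53B list 37, a ratio of 0.702 (0.448 to 1.09). The last GLI3 peaks were called in 1 list each, with 39 fragments in dKO NPCs downstream of the gene and 27 fragments with BAF53B upstream of it. Of the 8 GLI3 peaks in the dKO and BAF53B lists, 2 in each list had a counterpart in the other.

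Together the 9 gene windows held 32 separate regions. Of these, 9 had a peak in all 3 lists, 1 in WT and dKO, 5 in dKO and BAF53B and 0 in WT and BAF53B alone, and 1, 8 and 8 were called only in the WT, dKO and BAF53B lists. At 7 of the 32 regions the peak lay within 3 kb of the start of another protein-coding gene. Genes with a promoter peak in the dKO list but none in the WT list numbered 1 of 9 (HHIP), against 28.6% of all protein-coding genes, and the reverse held for 0 of 9, against 0.399%. Genes with one in the BAF53B list but none in the dKO list numbered 2 of 9 (PTCH1 and GLI3), against 2.05%, and the reverse held for 1 of 9 (HHIP), against 13.5%. By canonical start, neither PTCH1 nor GLI3 was among the genes open with BAF53B but not in dKO NPCs.

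A dKO counterpart was found for 11 of the 12 WT peaks in these windows, or 91.7% (Wilson 95% interval 64.6 to 98.5%), and a WT counterpart for 10 of the 23 dKO peaks, or 43.5% (25.6 to 63.2%). Over all peaks the shares were 79.4% and 24.4%. A BAF53B counterpart was found for 14 of the 23 dKO peaks, or 60.9% (40.8 to 77.8%), and a dKO counterpart for 14 of the 22 BAF53B peaks, or 63.6% (43 to 80.3%), against 44.3% and 66.7% over all peaks. These intervals too cover counting error only, and they count the pair of WT peaks before the SUFU start separately.

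Shared peaks were mostly higher in the dKO list, as they were throughout the genome. Of the 11 WT peaks with a dKO counterpart, 10 were higher in dKO NPCs, against 91.5% of all shared WT peaks. These 11 peaks lie in 10 regions, because the pair of WT peaks before the SUFU start has the same dKO counterpart. The median log2 ratio of pileup over genome background at the 11 peaks, dKO over WT, was 1.0 (1.99-fold), against 0.71 (1.63-fold) over all 6255 shared WT peaks. The local background around the peaks was also higher in the dKO list, with a median log2 ratio of 0.62 at the 11 peaks against 0.26 over all. On the scale of the authors' fold, which divides by that local background, the median log2 ratio was 0.46 against 0.44. The larger ratio in the windows of the Hedgehog genes was thus seen for the summit pileup, and on the fold scale the medians lay close together. Of the 12 WT peaks in these windows, 6 lay within 3 kb of the start of another protein-coding gene. Leaving such peaks out gave a median log2 ratio of pileup of 0.94, and no matching value over all peaks is given.

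BAF53B lay below dKO at most shared regions. Of the 14 dKO peaks with a BAF53B counterpart, 12 were lower with BAF53B, against 79.3% of all shared dKO peaks, and the median log2 ratio was −0.52, against −0.36 over all. At the 10 WT peaks with a BAF53B counterpart, which lie in 9 regions, the median log2 ratio of BAF53B over WT was 0.12, against 0.24 over all. The dKO over WT and the BAF53B over dKO ratios share the dKO list, so their opposite directions are not independent of each other.

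Region by region, the counting interval of dKO over WT lay above 1 at 8 of 10 shared regions, below 1 at 0, and spanned 1 at 2 (BOC 30.8 kb and GLI1 3.0 kb). The interval of BAF53B over dKO lay below 1 at 7 of 14, above 1 at 1 and spanned 1 at 6. The interval of BAF53B over WT lay above 1 at 3 of 9 (SMO 36.2 kb, SUFU at −0.1 kb and at 138.2 kb), and spanned 1 at 6. Such intervals are not given for all shared peaks, so these counts have no genome-wide share beside them. By direction alone, 91.5% of all shared WT peaks were higher in dKO NPCs. Likewise, 79.3% of all shared dKO peaks were lower with BAF53B.

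**Figure D4:**
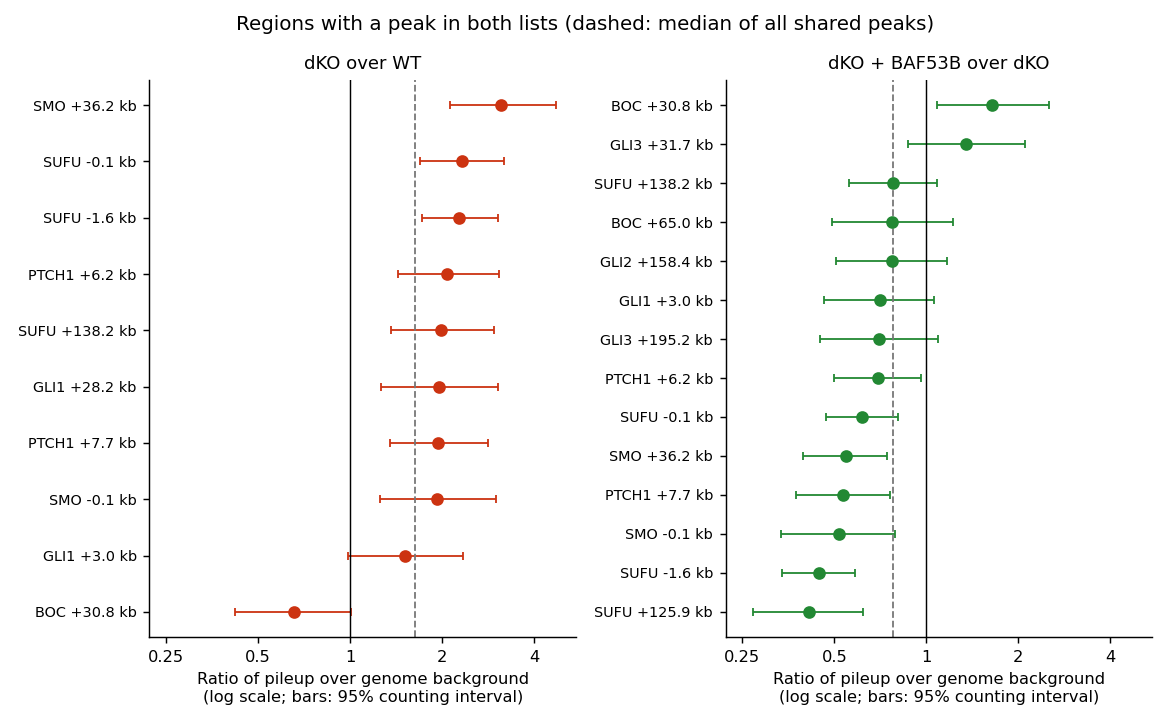
Ratio of summit pileup over genome background (log axis) at each region of the 9 genes with a peak in both lists, dKO over WT on the left (10 regions) and BAF53B over dKO on the right (14 regions). Bars are exact 95% intervals for counting error only, the solid line is 1 and the dashed line the median of all shared peaks in the genome. All but the BOC 30.8 kb region lie above 1 on the left, and all but BOC 30.8 kb and GLI3 31.7 kb lie below 1 on the right.

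The pileups had no common sequence match. The GLI consensus occurred within 100 bp of the summit in 1 peak of each list, at the PTCH1 canonical start printed above, and over all peaks in 0.152%, 0.248% and 0.230% of the WT, dKO and BAF53B lists. Among RefSeq promoters of protein-coding genes, 50 of 21613 (0.231%) held it. The AP-1 site occurred only in the BOC 30.8 kb peak, in all 3 lists, against 5.55%, 3.54% and 7.84% of all peaks. A GC box was present in 6 of 12 WT, 10 of 23 dKO and 5 of 22 BAF53B peaks, or 50%, 43.5% and 22.7%, against 48.2%, 39.3% and 39.8% of all peaks.

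A SOX site was present in 0, 1 and 1 of the WT, dKO and BAF53B peaks, both at GLI3, against 6.08%, 7.05% and 7.29% of all peaks. An E-box was present in 0, 2 and 3 peaks, against 11.8%, 15.5% and 13.5%. Among all RefSeq promoters, 4.03% held the AP-1 site, 6.90% a SOX site, 56.8% the GC box and 18% the E-box, and among the 13 promoters of the Hedgehog genes 2, 1, 8 and 1 did. Their GC content had a median of 61%, from 43.3% at SHH to 72.7% at HHIP, against a median of 62.3% over all promoters. These matches describe letters and are not evidence of binding.

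For the genes with a promoter peak in all 3 lists, the protein-coding genes with the most similar promoter pileups were found among 5363 genes by the Euclidean distance over the 3 log2 pileups. They were RNF24 (33, 68 and 35 fragments), GRK5 and CDC42BPA for SMO, MRFAP1 (37, 60 and 41), TMX4 and RPL31 for GLI1, and PJA2 (70, 172 and 90) and ATP5MC1 for SUFU. ACTR1A had the same values as SUFU because both starts share the same peaks. The distances ran from 0.000 to 0.064 log2 units over 3 lists.

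The remaining pathway genes were counted in 7 lists with 67 genes, by role. In all, 23, 43 and 34 had a promoter peak in the WT, dKO and BAF53B lists. These are 34.3%, 64.2% and 50.7%, against 28.2%, 56.4% and 45.0% of all protein-coding genes. These counts moved with the length of the lists: they were 23, 24 and 18 when all lists were limited to the length of the WT list, and 9, 30 and 15 at a −log10 q of at least 10. Kinases and ubiquitin ligases that act on GLI proteins had the most, with 11, 15 and 13 of 16 (68.8%, 93.8% and 81.2%). These and the ciliary genes lay above the share of all protein-coding genes in every peak list. Ventral and dorsal patterning genes lay below it, and the other roles varied by peak list. PRKACA, the catalytic subunit of protein kinase A, had 56, 171 and 78 fragments. GSK3B and GSK3A, kinases that phosphorylate GLI proteins, had 76, 150 and 100 fragments and 52, 145 and 80 fragments. Genes of ciliary transport and the relay from SMO to GLI had a promoter peak at 6, 11 and 7 of 12.

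Within the ciliary list, IQCE, which tethers the EVC complex in the cilium, had 34, 104 and 56 fragments. IFT172 and KIF3A, parts of intraflagellar transport, had 53, 104 and 59 fragments and 31, 90 and 39 fragments. EVC and EVC2, named after their values were seen, share a single dKO peak of 38 fragments. These examples were named for their dKO pileup, so their order between lists says nothing of the list. EFCAB7, another member named after its values were seen, had 40, 77 and 35 fragments.

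Other receptors and membrane regulators had a promoter peak at 2, 4 and 2 of 6. These are 33.3%, 66.7% and 33.3%, against 28.2%, 56.4% and 45.0% of all protein-coding genes. The co-receptors GAS1 and CDON had 34, 91 and 42 fragments and 34, 74 and 72 fragments, and LRP2, a large endocytic receptor, had 59 in dKO NPCs alone. Other ligands and ligand release genes had a promoter peak at 2, 4 and 6 of 8 (25%, 50% and 75%), and with lists of equal length at 2, 0 and 2. SCUBE1, a secreted factor for ligand release, had 32, 58 and 41 fragments, and SCUBE3 had 44 in dKO NPCs alone. DISP1, which exports the ligand, had none in WT NPCs, 39 in dKO NPCs and 32 with BAF53B. SCUBE2 was the only one of the 67 genes with a promoter peak in WT NPCs and none in dKO NPCs, with 32 fragments in WT NPCs and 38 with BAF53B.

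Transcription factor genes of the ventral neural tube, which Hedgehog induces, had a promoter peak at 1, 1 and 4 of 9. These are 11.1%, 11.1% and 44.4%, against 28.2%, 56.4% and 45.0% of all protein-coding genes. The BAF53B share thus lay near that of all genes. NKX6-1 had 33, 61 and 32 fragments. NKX2-1, OLIG1 and OLIG2, named after their values were seen, had a peak with BAF53B alone, of 34, 33 and 39 fragments. With peaks of −log10 q of at least 10, or with all lists limited to the length of the WT list, 0 of the 9 ventral genes had a promoter peak with BAF53B.

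Genes listed here as dorsal or intermediate, a class taken as repressed by Hedgehog and not checked gene by gene, had a promoter peak at 0, 2 and 1 of 8. These are 0%, 25% and 12.5%, against 28.2%, 56.4% and 45.0% of all protein-coding genes. IRX3 had 58 fragments in dKO NPCs alone, and MSX1 had 48 in dKO NPCs and 36 with BAF53B. General targets had a promoter peak at 1, 6 and 1 of 8 (12.5%, 75% and 12.5%), and with lists of equal length at 1, 1 and 0. CCND1, the cyclin D1 gene, had 37 fragments in WT NPCs and 114 in dKO NPCs, and none was called with BAF53B. CCND2, another D-type cyclin gene, had 49 fragments and FOXM1, a regulator of mitotic genes, 48, both in dKO NPCs alone. The FOXM1 peak is shared with the TULP3 start. CCND1, CCND2 and FOXM1 were named for their dKO pileup, so their order between peak lists says nothing of the general targets.

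**Figure D5:**
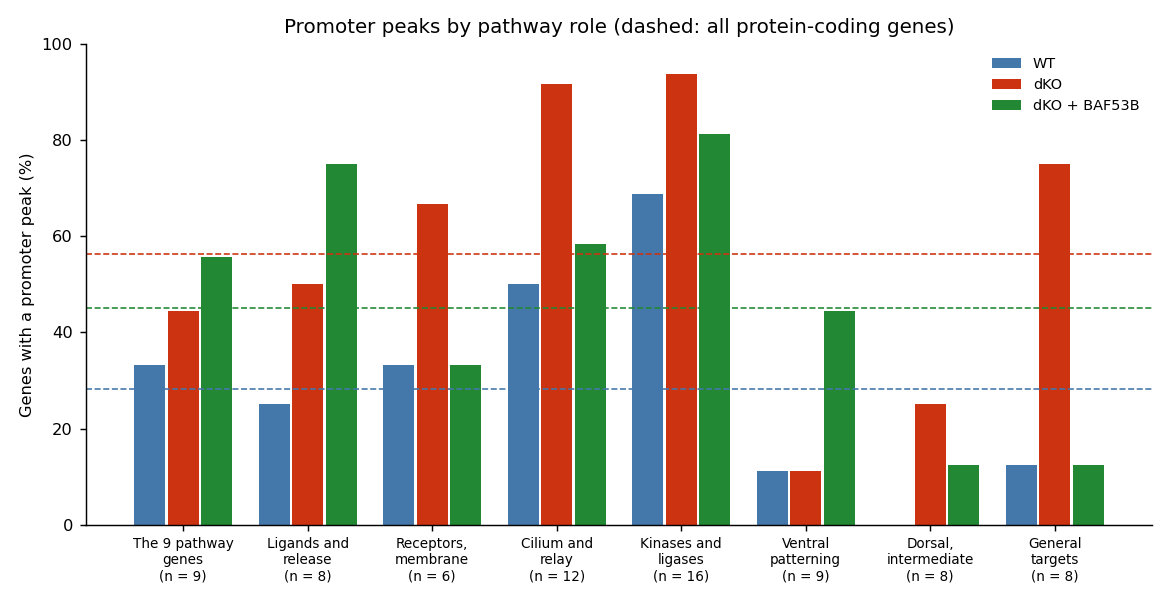
Share of genes (%) with a promoter peak (start ± 3 kb) in the WT, dKO and BAF53B lists, for the 9 Hedgehog genes and 7 further lists by role, with the number of genes under each. Dashed lines are the shares over all protein-coding genes, 28.2%, 56.4% and 45.0%. With the full lists, ventral patterning and ligand release genes have their highest bar in BAF53B and general targets in dKO, an order that did not hold with lists of equal length.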

How the data were processed

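ATAC-seq libraries of 6 samples, 2 per group, were analysed as 3 peak lists. Per the methods and the submitters' notes, the authors trimmed adapters with cutadapt 1.13, aligned to hg38 with Bowtie2 2.2.5, removed duplicates with SAMtools 1.3.1 and Picard 1.90, and called peaks with MACS2, with 1 list named in the labels of both replicates of a group. The MACS2 options and the Tn5 shift are not given in the sources used here. The deposited fold is a ratio of summit pileup to local background (pseudocount 1). A Poisson −log10 p-value of the same pair and its adjusted −log10 q-value (at least 5) were deposited as well, and the deposited score, 10 times the −log10 p, was not used.

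From fold and −log10 p, whole pileups could be solved for 100% of peaks (tolerance 0.02 in −log10 p) and divided by each list's lowest local background, taken as its depth. The recovery was tested on simulated peaks. Overlap meant at least 1 bp, and the strongest counterpart was used. Genes came from GENCODE version 44, in the build of the lists. The tools were pysam 0.24.0, scipy 1.17.1 and matplotlib 3.10.9 under Python 3.11.15, with pandas 2.3.3 and numpy 2.4.6.

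The 9 genes and all further lists were chosen with earlier results of these data known. Named genes were the 9 members, in each further list up to 3 genes of highest dKO promoter pileup and any gene with a WT but no dKO promoter peak, neighbours at described peaks, and the 3 nearest genes by pattern. EVC, EVC2, EFCAB7, NKX2-1, OLIG1 and OLIG2 were named outside this rule.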

Additional observations from a re-analysis of the deposited data

How the results depend on the processing

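Of 138 recomputed values of 25 results, 95 stayed within the margin (1.5 times for counts, 0.1 for log2 medians, the 95% interval for shares), 43 moved and 0 reversed; 2 of the 12 alternatives were chosen after seeing the data. With peaks of −log10 q of at least 10, promoter peaks were found at 1 and 1 of the 9 genes in the WT and BAF53B lists (2 in dKO and not in WT, 0 with BAF53B and not in dKO), window peaks at 2 genes in WT, with 4 WT and 7 BAF53B peaks, and 9 WT and 15 BAF53B of 67 other genes had a promoter peak. The SHH interval then held 2 BAF53B peaks, the GLI consensus 0 WT and 0 BAF53B matches, the median log2 ratios were 1.21 (dKO over WT) and −0.70 (BAF53B over dKO), and 31.2% and 12.5% of dKO peaks overlapped BAF53B and WT peaks. With all lists limited to 7880 peaks, the dKO list had 2 genes with promoter peaks, 5 with window peaks, 11 peaks and 24 of 67 other genes, the BAF53B list 1 gene, 9 peaks, 18 other genes, 2 SHH interval peaks and 0 GLI matches, the contrasts were 0 (dKO not WT), 1 (WT not dKO) and 0 (BAF53B not dKO), the BAF53B over dKO median was −0.70, and 72.7% of dKO peaks overlapped WT peaks.

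Promoter peaks in dKO and not in WT numbered 2 with a 1 kb window, all transcript starts or the canonical start, and those with BAF53B and not in dKO 0 with the last 2. A flank of 50 kb gave 36 dKO peaks, a reciprocal overlap of 50% a dKO over WT median of 0.79 and 17.4% of dKO peaks shared with WT, and the authors' fold medians of 0.46 and −0.19. Leaving out peaks near other genes' starts left 6 WT peaks, and a motif window of 50 bp 0 GLI matches in the WT and BAF53B lists. No paired analysis was possible because the replicates of a group entered a common list, and leaving out a replicate was not run for the same reason. The cause of these moves was not tested. The peak threshold limits what the lists can show: absence of a peak is not absence of accessibility.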
